A study of Mus musculus with 8 samples.

Results

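Asns, Chac1, Trib3, Ddit3, Atf3, Sesn2, Psat1, Phgdh, Shmt2 and Slc7a11 are genes of amino acid supply and of the integrated stress response, and were followed here through 4 culture conditions of mouse embryonic stem cells (ESCs). They were chosen by symbol as known targets of the transcription factor ATF4, by a rule that uses no measured value. Earlier results of these data were known when they were chosen. They are 10 of the 20278 genes listed in the deposited tables. All 10 passed the filter on low counts, and 15287 genes were tested. Poly-A RNA of N33 ESCs, a single line of C57BL/6 origin, was sequenced from 8 samples, 2 for each condition.

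All cultures received leukemia inhibitory factor at 1000 U/ml, non-essential amino acids at 0.1 mM, β-mercaptoethanol, penicillin and streptomycin. ESCs named −F grew in knockout DMEM with 20% fetal bovine serum and 1 mM glutamine on gelatin without feeders. ESCs named F grew in that medium on feeders, which were mouse embryonic fibroblasts (MEFs) stopped from dividing by mitomycin C. F2i ESCs had feeders and serum as well as 2i, the pair of inhibitors of GSK3β (CHIR99021) and MEK (PD0325901). NB2i ESCs had neither feeders nor serum and grew on poly-L-ornithine and laminin in N2B27, a defined medium of DMEM/F12 and Neurobasal with N2 and B27 supplements, with 2 mM glutamine, 3 µM CHIR99021 and 1 µM PD0325901. ESCs were separated from feeders before RNA extraction by how each attaches to the dish, and NB2i differs from F2i in feeders, serum, basal medium, coating and glutamine together, which the design cannot tell apart. The study calls the samples biological replicates without saying how they were separated, so p-values measure the spread between these samples.

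The integrated stress response starts when kinases such as GCN2, which senses uncharged tRNA, or PERK, which senses unfolded protein in the endoplasmic reticulum (ER), phosphorylate the translation factor eIF2α. General translation then slows while ATF4 mRNA is translated more, and ATF4 binds C/EBP-ATF response elements (CAREs) at genes for amino acid synthesis, uptake and tRNA charging. It also acts on genes for further transcription factors and for proteins that limit the response. ESCs are known for a high demand for amino acids, and several of these enzymes are strongly expressed in them.

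The promoter letters were read first because CAREs are the element through which ATF4 acts. RefSeq promoters of mouse build GRCm38.p6, from 250 bases before to 50 after each start, were matched for 10 of 10 genes, 11 promoters in all. The core TGATGNAA was searched on both strands and was found for 5 genes, Asns, Chac1, Trib3, Atf3 and Slc7a11. Each of these genes had 1 promoter, so 5 of the 11 promoters held the core. It was present in 3.971% of all 32817 promoters, which belong to 26994 genes, in the same table. The stretches around the matches are printed 5′ to 3′ on the strand of the gene, with the matched letters in capitals.
Asns, chr6:7693210-7693272, minus strand: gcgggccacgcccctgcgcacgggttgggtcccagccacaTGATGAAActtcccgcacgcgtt
Chac1, chr2:119351009-119351096, plus strand: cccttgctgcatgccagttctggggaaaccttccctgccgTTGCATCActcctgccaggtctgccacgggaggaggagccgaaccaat
Trib3, chr2:152344028-152344057, minus strand: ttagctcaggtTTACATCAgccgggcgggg
Atf3, chr1:191183396-191183483, minus strand: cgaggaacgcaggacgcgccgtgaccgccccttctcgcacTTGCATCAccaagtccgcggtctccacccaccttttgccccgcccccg
Slc7a11, chr3:50443614-50443719, minus strand: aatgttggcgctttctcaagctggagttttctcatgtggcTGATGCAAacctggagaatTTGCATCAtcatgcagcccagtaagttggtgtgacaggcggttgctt
The match began 23 bases before the start in Asns, 193 in Chac1 and 110 in Atf3, whose RefSeq start lies inside the gene as GENCODE draws it. Slc7a11 had 2 matches, at 66 and 47 bases before the start and on opposite strands. The Trib3 match lay downstream of the start, from base 15 on. Ddit3, Sesn2, Psat1, Phgdh and Shmt2 had no match of these letters within the window, which says nothing of sites elsewhere. The palindromic cAMP response element TGACGTCA was in none of the 11 promoters and in 1.792% of all. The antioxidant response element core TGACNNNGC, bound by NRF2, was found for Asns, Sesn2 and Phgdh and in 12.38% of all promoters. A match is a description of letters and no evidence of binding.

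Expected counts summed to between 20129641 and 20664488 per sample, so all samples had close to the same depth. The 5 ESC markers Pou5f1, Sox2, Nanog, Zfp42 and Esrrb were present in every sample, with none under 39.46 FPKM (fragments scaled to transcript length and to depth). Fibroblast markers were detected as well. Of 12 fibroblast markers, Fn1 was highest in the feeder-free NB2i samples at 357.87 and 334.22 FPKM and so did not follow feeders. The other 11 summed to 45.3 and 44.1 FPKM in −F, 351 and 359 in F, 798 and 789 in F2i, and 3.20 and 2.56 in NB2i. Tagln alone gave 30.26 and 29.11 of the −F sums, and none of the rest was above 4.96 FPKM there. Postn, Lum and Dcn were at 0 in both NB2i samples and Col3a1 in 1 of them, Lum was at 0 in both −F samples and Dcn in 1, and none was at 0 with feeders. Fn1 was set apart after its values were seen, so the full list is counted here (edgeR, adjusted p under 0.05). Of the 12, 12 rose and 0 fell in F against −F, where 21.7% of all genes tested were higher and 18.5% lower. In NB2i against F2i, 11 fell and 1, Fn1, rose, where 30.8% of all genes were lower and 33.3% higher. The part of feeder RNA in the comparisons below was not tested, and in such bulk samples fewer cells of a type and less RNA per cell cannot be told apart.

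The 10 genes did not all move together, and they fell into several patterns over the conditions. The plot of levels by condition shows the values of each sample.

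**Figure D1:**
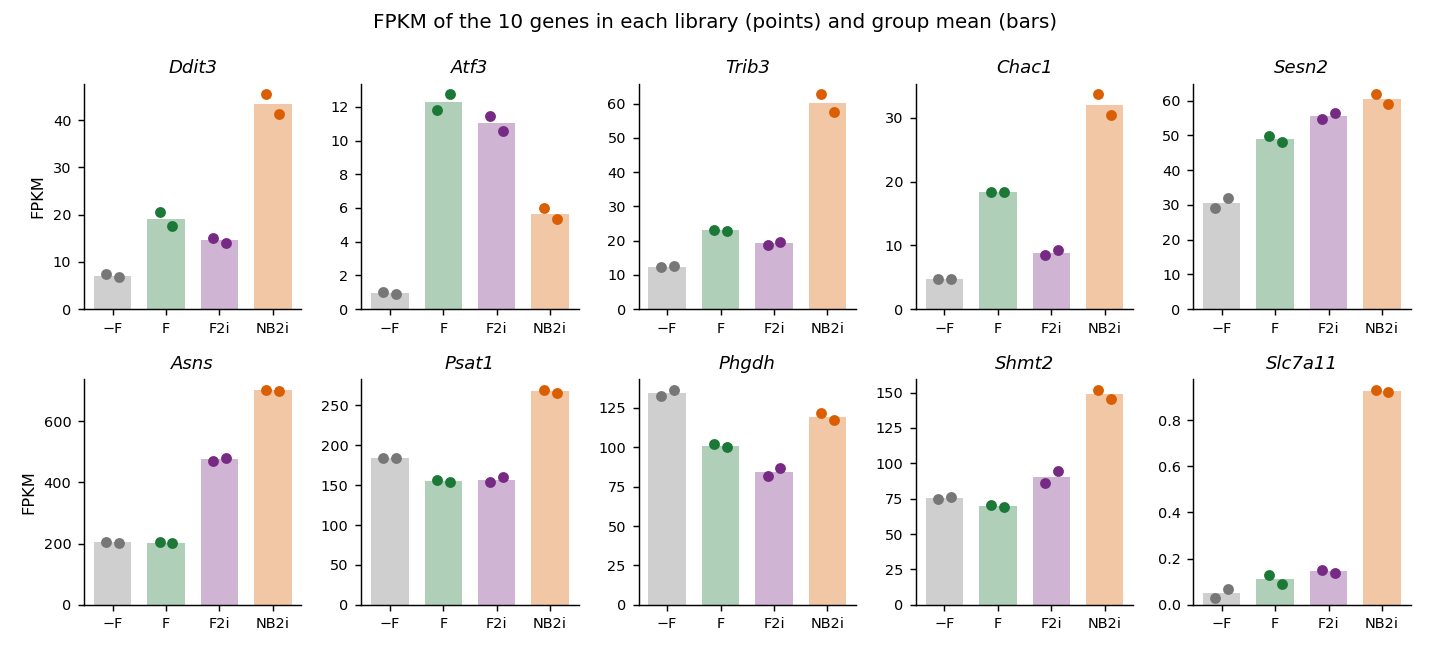
FPKM of the 10 genes in each of the 8 samples (points, linear axes from 0) by condition, with the mean of the 2 samples as a bar. Asns was at the same level in −F and F and rose in F2i and again in NB2i, whereas Atf3 was lowest in −F and highest in F and F2i.

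Among the transcription factors and regulators, Ddit3 encodes CHOP, which is induced late in the response and is linked to cell death. Ddit3 FPKM was 7.37 and 6.71 in −F, 20.57 and 17.54 in F, 15.13 and 14.02 in F2i and 45.43 and 41.33 in NB2i. Every NB2i sample was above every other sample and both −F samples were below all others. Ddit3 rose 2.74-fold with feeders (log2 fold change 1.45 ± 0.11, adjusted p = 7.04e-10, ± SE, from the quasi-likelihood test of edgeR and adjusted by Benjamini-Hochberg over all genes tested) and was 3-fold higher in NB2i than in F2i (log2 fold change 1.58 ± 0.084, adjusted p = 4.40e-13). The smaller difference between F2i and F (log2 fold change -0.34 ± 0.095, adjusted p = 0.00511) lost its call without F replicate 1, when the log2 fold change was -0.23 and the adjusted p 0.108, and without F2i replicate 2, when they were -0.29 and 0.0563. Ddit3 (Entrez 13198) lies at chr10:127290774-127296288 (mm10, GENCODE annotation, as are the positions below) and overlaps Mars, the methionyl-tRNA synthetase gene, on the opposite strand. The library protocol names no strand marking, so reads of the shared stretch cannot be told apart. Mars, at means of 87.6 ± 0.707 (SD, n = 2) FPKM in F2i and 106 ± 2.6 in NB2i, changed by 0.28 ± 0.043 on the log2 scale there.

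Trib3 (Entrez 228775, chr2:152337422-152344032) encodes a pseudokinase that binds ATF4 and CHOP and limits their activity. Its FPKM was 12.17 and 12.53 in −F, 23.16 and 22.84 in F, 18.73 and 19.63 in F2i and 62.71 and 57.55 in NB2i, so that the groups stood in the same order as for Ddit3 and did not overlap. Trib3 was 1.89-fold higher in F than in −F (log2 fold change 0.92 ± 0.065, adjusted p = 2.48e-10) and 3.15-fold higher in NB2i than in F2i (log2 fold change 1.65 ± 0.056, adjusted p = 1.84e-16). The decrease from F to F2i was small (log2 fold change -0.22 ± 0.061, adjusted p = 0.00405) and was not called without F2i replicate 1, at -0.19 and an adjusted p of 0.0538.

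Atf3 (Entrez 11910, chr1:191170296-191218039), a bZIP factor of the ATF family that many stresses induce, was ordered otherwise. Its FPKM was 1.01 and 0.91 in −F, 11.80 and 12.74 in F, 11.47 and 10.57 in F2i and 5.99 and 5.32 in NB2i. The F and F2i samples were high, the NB2i samples lay between, and the −F samples were near 1. Atf3 rose 12.9-fold from −F to F (log2 fold change 3.69 ± 0.12, adjusted p = 6.09e-16), the largest fold change of the 10 genes in that comparison, from 41 and 37 expected counts to 473 and 518. F2i and F did not differ beyond their spread (log2 fold change -0.12 ± 0.078, adjusted p = 0.218). In NB2i, Atf3 was 2.1-fold lower than in F (log2 fold change -1.07 ± 0.087, adjusted p = 3.61e-10) and 1.94-fold lower than in F2i (log2 fold change -0.96 ± 0.089, adjusted p = 5.48e-09). The other 9 genes rose in these comparisons, Sesn2 against F2i by a difference not called with DESeq2, and Atf3 alone fell. The decrease from F stayed significant without NB2i replicate 2 but came to -0.97 on the log2 scale, under 2-fold.

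Among the effectors, Chac1 (Entrez 69065, chr2:119351229-119354381) encodes a γ-glutamyl cyclotransferase that degrades glutathione, and it is one of the most responsive CHOP and ATF4 targets. Chac1 FPKM was 4.66 and 4.66 in −F, 18.31 and 18.34 in F, 8.49 and 9.26 in F2i and 33.68 and 30.49 in NB2i. No group overlapped another, and F2i stood below F although both had feeders. Chac1 rose 3.99-fold with feeders (log2 fold change 2.00 ± 0.091, adjusted p = 1.43e-13), was 2.01-fold lower when 2i was added to feeder cultures (log2 fold change -1.01 ± 0.081, adjusted p = 7.79e-10) and was 3.63-fold higher in NB2i than in F2i (log2 fold change 1.86 ± 0.076, adjusted p = 4.98e-15). It was the only member lower by at least 2-fold in F2i against F. That count rests on a value at the threshold, which ranged from -1.07 to -0.94 over the alternatives with every adjusted p under 0.05.

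Sesn2 (Entrez 230784, chr4:132492032-132510501) encodes sestrin 2, a leucine sensor that restrains mTORC1. Its FPKM was 29.18 and 32.07 in −F, 49.83 and 48.13 in F, 54.82 and 56.54 in F2i and 61.83 and 59.11 in NB2i. The −F samples were low and the other 3 groups lay close together, in the order F, F2i and NB2i. Sesn2 rose 1.62-fold from −F to F (log2 fold change 0.70 ± 0.051, adjusted p = 3.47e-10) and by 0.22 on the log2 scale from F to F2i (adjusted p = 4.85e-04). Its difference between NB2i and F2i (log2 fold change 0.13 ± 0.048, adjusted p = 0.026) was lost in 7 of the alternative analyses. Among them were DESeq2 (0.11 and adjusted p = 0.125) and those without F2i replicate 1 (0.10) and without NB2i replicate 1 (0.09).

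Among the enzymes, Asns (Entrez 27053, chr6:7675169-7693254) encodes asparagine synthetase, which makes asparagine from aspartate and glutamine. Asns FPKM was 204.47 and 202.89 in −F, 203.77 and 202.94 in F, 469.65 and 480.15 in F2i and 701.17 and 699.39 in NB2i. Values of −F and F overlapped, and each further condition was above the last without overlap. Asns did not differ between F and −F beyond its spread (log2 fold change 0.02 ± 0.040, adjusted p = 0.726), was 2.4-fold higher in F2i than in F (log2 fold change 1.26 ± 0.040, adjusted p = 1.19e-16) and was another 1.48-fold higher in NB2i (log2 fold change 0.57 ± 0.039, adjusted p = 3.70e-11). At means of 475 ± 7.42 (SD, n = 2) FPKM in F2i and 700 ± 1.26 in NB2i it had the highest level per transcript length of the 10 genes in every condition. It was the only member higher by at least 2-fold in F2i against F.

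Phgdh (Entrez 236539, chr3:98313170-98339990) and Psat1 (Entrez 107272, chr19:15904678-15947337) encode the first and second enzymes of serine synthesis from the glycolytic intermediate 3-phosphoglycerate. Phgdh FPKM was 132.84 and 136.26 in −F, 101.77 and 99.92 in F, 81.71 and 87.13 in F2i and 121.46 and 117.13 in NB2i. In contrast to all other members its highest values were in −F, and the groups did not overlap. Phgdh fell by 0.39 on the log2 scale from −F to F (adjusted p = 2.82e-07) and by a further 0.22 from F to F2i (adjusted p = 2.99e-04), and was 1.42-fold higher in NB2i than in F2i (log2 fold change 0.50 ± 0.044, adjusted p = 2.26e-09). The difference between NB2i and −F (log2 fold change -0.11 ± 0.043, adjusted p = 0.0324) lost its call without −F replicate 2 (-0.09 and adjusted p = 0.0948) and without NB2i replicate 1 (-0.13 and adjusted p = 0.0502) or 2 (-0.07 and adjusted p = 0.300).

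Psat1 FPKM was 184.14 and 183.58 in −F, 156.97 and 153.61 in F, 153.76 and 159.97 in F2i and 269.26 and 266.02 in NB2i. Both NB2i samples were well above the rest, and F and F2i overlapped. Like Phgdh it fell from −F to F, by 0.22 on the log2 scale (adjusted p = 1.69e-04). It did not differ between F2i and F beyond the spread (log2 fold change 0.05 ± 0.041, adjusted p = 0.287) and was 1.71-fold higher in NB2i than in F2i (log2 fold change 0.78 ± 0.041, adjusted p = 3.37e-13). A processed pseudogene, Gm3329, lies within the Psat1 gene.

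Shmt2 (Entrez 108037, chr10:127517123-127522444) encodes the mitochondrial serine hydroxymethyltransferase, which splits serine into glycine and a folate-bound carbon unit. Its FPKM was 74.87 and 75.95 in −F, 70.46 and 69.11 in F, 86.33 and 94.57 in F2i and 151.75 and 145.78 in NB2i. F and −F did not differ beyond their spread (log2 fold change -0.09 ± 0.048, adjusted p = 0.149), F2i was 1.33-fold higher than F (log2 fold change 0.41 ± 0.047, adjusted p = 1.81e-07), and NB2i was 1.65-fold higher than F2i (log2 fold change 0.72 ± 0.046, adjusted p = 8.76e-12). Both NB2i samples were above both F2i samples, which were above the rest. Shmt2, like Ddit3, shares its place with a gene of the opposite strand, Ndufa4l2.

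Slc7a11 (Entrez 26570, chr3:49892526-50443614) encodes xCT, the cystine and glutamate exchanger that feeds glutathione synthesis. It was the least expressed of the 10, with FPKM of 0.03 and 0.07 in −F, 0.13 and 0.09 in F, 0.15 and 0.14 in F2i and 0.93 and 0.92 in NB2i. The expected counts behind these values were 6.54 and 13.64, 24.62 and 16.91, 27.44 and 27.24, and 180.15 and 177.22 in the same order. The Slc7a11 gene overlaps the antisense gene Gm37854, the processed pseudogenes Gm37826, Gm37692 and Gm2345, and Gm37498. Slc7a11 stood out in NB2i, 6.5-fold above F2i (log2 fold change 2.70 ± 0.20, adjusted p = 1.00e-10), whereas F2i and F did not differ beyond their spread (log2 fold change 0.41 ± 0.30, adjusted p = 0.254). The difference between F and −F (log2 fold change 1.02 ± 0.37, adjusted p = 0.0309) rested on few reads and was lost in 7 alternatives, among them those without −F replicate 1 (0.60 and adjusted p = 0.286) and without F replicate 1 (0.71 and adjusted p = 0.262).

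**Figure D2:**
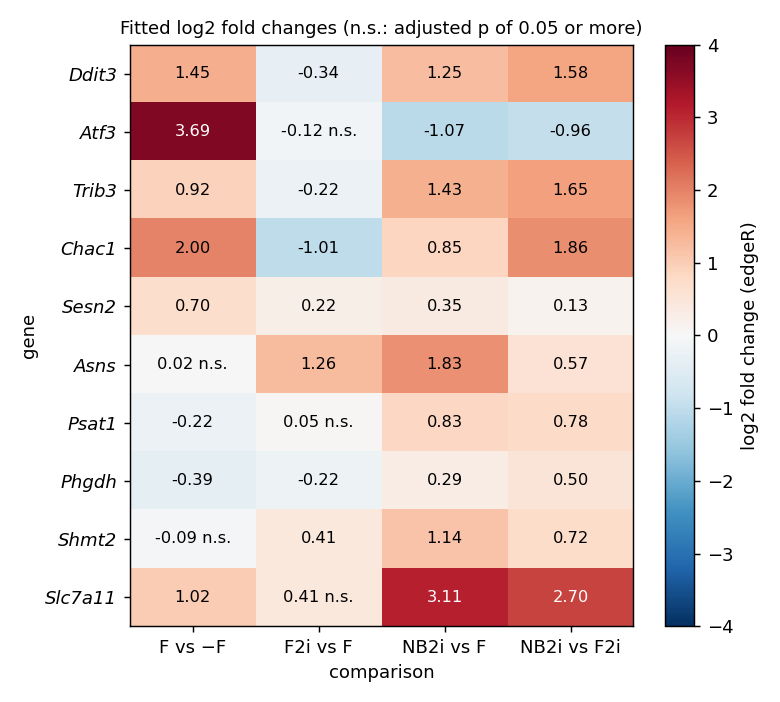
Log2 fold changes of the 10 genes (rows) in 4 comparisons (columns), as colours and printed values from edgeR over all 15287 genes tested, where n.s. marks an adjusted p of 0.05 or more. Atf3 is the only gene below 0 in both NB2i columns, and Asns has the highest value in F2i against F.

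Taken by comparison, F stood above −F in the regulators and effectors and not in the enzymes. Against −F, 6 of the 10 genes rose in F at an adjusted p under 0.05 (Atf3, Chac1, Ddit3, Trib3, Sesn2 and, on few reads, Slc7a11) and 2 fell (Phgdh and Psat1), while 21.7% of all genes tested were higher and 18.5% lower. At least 2-fold, 4 were higher (Atf3, Chac1, Ddit3 and Slc7a11) and 0 lower, where 5.59% of all genes were called higher and 1.65% lower. Slc7a11 lost its call with DESeq2, at 1.01 and an adjusted p of 0.0916. The median log2 fold change of the 10 was 0.81, and that of all genes tested lay between -0.00717 and 0.0178 over the 6 comparisons. Over the same comparison the 11 fibroblast markers without Fn1 rose too.

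When 2i was added to feeder cultures the members moved in both directions. In F2i against F, 3 rose (Asns, Shmt2 and Sesn2) and 4 fell (Chac1, Ddit3, Trib3 and Phgdh), where 27.3% of all genes were higher and 27.4% lower. At least 2-fold, 1 was higher and 1 lower, against 6.44% and 7% of all genes. Their median was -0.03. The summed fibroblast markers were also higher in F2i than in F.

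In NB2i the members were higher with 1 exception. Against F2i, 9 rose and 1, Atf3, fell, where 33.3% of all genes were higher and 30.8% lower. Of the 9, Sesn2 lost its call with DESeq2, at 0.11 and an adjusted p of 0.125. At least 2-fold, 4 were higher (Slc7a11, Chac1, Trib3 and Ddit3) and 0 lower, where 6.01% were called higher and 13.3% lower, and the median was 0.75. Against F, 9 rose and 1, again Atf3, fell (36.3% and 37.1% of all genes), of which 5 and 1 were at least 2-fold (10% and 17.6% of all genes), with a median of 0.99. These comparisons share the NB2i samples. In NB2i, where 9 of the 10 genes were higher, the 11 fibroblast markers without Fn1 were at or near 0, and Fn1 was at its highest.

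NB2i and −F are both cultures without feeders, in which the 11 fibroblast markers summed to 3.20 and 2.56 and to 45.3 and 44.1 FPKM. Tagln alone gave 30.26 and 29.11 of the −F sums. These cultures differ in 2i, serum, basal medium, coating and glutamine together, which the design cannot tell apart. In NB2i against −F, 8 of the 10 were at least 2-fold higher and 0 lower, where 11.1% of all genes were called higher and 16.1% lower. Slc7a11 was 17.5-fold (4.13 ± 0.24 on the log2 scale), Chac1 7.21-fold, Ddit3 6.51-fold, Atf3 6.13-fold, Trib3 5.1-fold and Asns 3.6-fold higher in NB2i. The 8 also took in Sesn2 and Shmt2, at 2.07-fold and 2.07-fold, and the other two were Psat1, 1.52-fold higher, and Phgdh. The Slc7a11 value rested on 6.54 and 13.64 expected counts in −F. It ranged from 0.87 to 4.70 on the log2 scale over the alternatives. With limma on log2(FPKM + 1), 5 of the 10 genes were at least 2-fold higher in NB2i than in −F. In F2i against −F, 4 were at least 2-fold higher (Atf3, Slc7a11, Asns and Ddit3) and 0 lower, where 11.7% and 9.82% of all genes were called. Slc7a11 lost this call with limma on log2(FPKM + 1), at 0.13 and an adjusted p of 0.162, and on log2(FPKM + 0.1), at 0.72 and 0.0547, and the first of these left 2 of the 10 genes at least 2-fold higher. With 2 samples in each group the smallest p of an exact permutation test is 0.333, so these calls rest on the spread that the model estimates over genes.

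Atf4, which encodes the factor that links the 10 genes, passed the test between −F and the other conditions only. Atf4 FPKM was 130.50 and 127.87 in −F, 302.84 and 300.78 in F, 295.00 and 289.57 in F2i and 290.89 and 306.65 in NB2i. The 2 −F samples were low and the other 6 lay together. Atf4 mRNA rose 2.37-fold from −F to F (log2 fold change 1.25 ± 0.042, adjusted p = 4.96e-16) and did not differ beyond the spread between F2i and F (log2 fold change -0.02 ± 0.040, adjusted p = 0.777) or between NB2i and F2i (log2 fold change 0.04 ± 0.040, adjusted p = 0.345). ATF4 is controlled largely at translation, which was not measured here.

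Atf5, a related factor under similar translational control, rose at each step instead. Its FPKM was 12.22 and 11.04 in −F, 18.73 and 21.42 in F, 32.32 and 34.27 in F2i and 56.59 and 55.37 in NB2i, with no overlap between groups. The log2 fold changes were 0.82 ± 0.076 for F against −F, 0.77 ± 0.066 for F2i against F and 0.76 ± 0.059 for NB2i against F2i, with adjusted p of 1.99e-08, 1.79e-09 and 2.76e-10.

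Ppp1r15a encodes GADD34, which brings phosphatase to eIF2α and ends the response. Its FPKM was 11.05 and 12.39 in −F, 42.83 and 42.10 in F, 33.22 and 33.14 in F2i and 25.98 and 26.87 in NB2i. It peaked in F, 3.68-fold over −F (log2 fold change 1.88 ± 0.057, adjusted p = 8.90e-17), and was lower in F2i and lower again in NB2i (log2 fold change -0.32 ± 0.052, adjusted p = 1.54e-05 against F2i). The constitutive partner Ppp1r15b rose by 0.58 from −F to F (adjusted p = 3.03e-10) and gave 0.17 ± 0.041 and -0.04 ± 0.040 in F2i against F and NB2i against F2i.

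**Figure D3:**
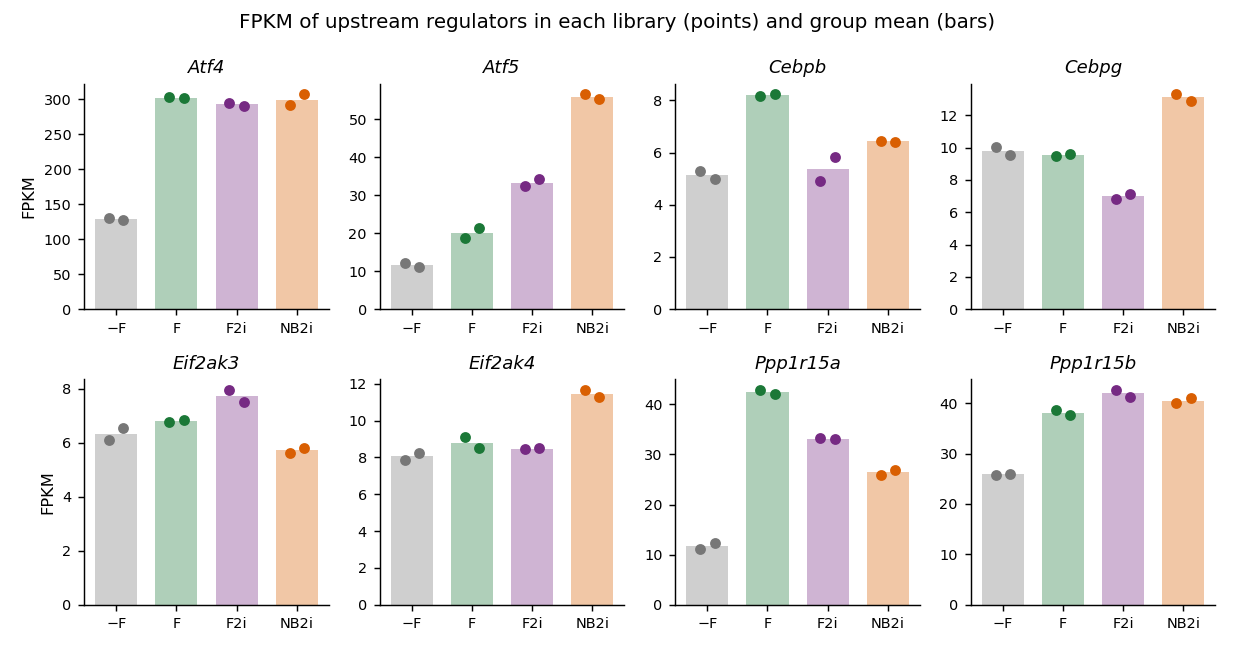
FPKM of 8 of the regulators of the integrated stress response in each of the 8 samples (points) by condition, with the mean of the 2 samples as a bar. Atf4 stood apart only in −F, whereas Atf5 was higher in each successive condition and Ppp1r15a was highest in F.

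The C/EBP factors pair with ATF4 on CAREs. Cebpg was at 6.84 and 7.16 FPKM in F2i and 13.30 and 12.92 in NB2i (log2 fold change 0.91 ± 0.058, adjusted p = 1.15e-11), after a decrease of 0.41 from F to F2i (adjusted p = 7.09e-06). Cebpb rose by 0.69 with feeders (adjusted p = 1.86e-05), fell by 0.57 when 2i was added (adjusted p = 9.08e-05) and was 0.26 ± 0.11 in NB2i against F2i.

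The eIF2α kinases and their target had small fold changes. In NB2i against F2i, Eif2ak4, which encodes GCN2, rose by 0.44 and Eif2ak3, which encodes PERK, fell by 0.42 (adjusted p = 1.37e-06 and 2.06e-05). Eif2ak2, which encodes PKR, rose by 0.31 (adjusted p = 0.00336), and Eif2ak1, which encodes HRI, gave -0.06 ± 0.055 (adjusted p = 0.342). Eif2s1, which encodes eIF2α itself, gave -0.08 ± 0.042 (adjusted p = 0.0802), and Eif2b5, a subunit of its exchange factor, fell by 0.27 there (adjusted p = 4.25e-06) after a rise of 0.80 from F to F2i (adjusted p = 2.72e-13). Of the 12 regulators, 5 rose and 3 fell in NB2i against F2i, where 33.3% of all genes were higher and 30.8% lower, with a median log2 fold change of 0.00019. In F against −F, 7 of them rose and 0 fell (21.7% and 18.5% of all genes), with a median of 0.20.

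Further genes of the pathway were counted in lists of textbook members. These and the lists below were chosen with earlier results of these data known, so their counts are a description. Among 20 other ATF4 response genes, 19 rose and 0 fell in NB2i against F2i (33.3% and 30.8% of all genes), 5 of them at least 2-fold (6.01% of all genes), with a median log2 fold change of 0.61. The largest were Fgf21 at 1.92 ± 0.45, a secreted metabolic hormone, Stc2 at 1.73 ± 0.089, a secreted glycoprotein, Gdf15 at 1.66 ± 0.10, a stress hormone, and Nupr1 at 1.45 ± 0.059, a chromatin-associated stress factor. Fgf21 was low, at mean FPKM of 0.265 in F2i and 1.02 in NB2i. In F against −F, 11 rose and 4 fell (21.7% and 18.5% of all genes) with a median of 0.29, and Herpud1, an ER degradation factor, was the only one past 2-fold (1.82 ± 0.077). In F2i against F, 10 rose and 4 fell (27.3% and 27.4% of all genes), and 4 were at least 2-fold higher (6.44% of all genes). Gdf15 led there at 2.02 ± 0.17, followed by Cth, the cystathionine γ-lyase gene, at 1.46 ± 0.047, Bcat1, the cytosolic branched-chain aminotransferase gene, at 1.16 ± 0.040, and Jdp2, a bZIP factor gene, at 1.12 ± 0.10.

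**Figure D4:**
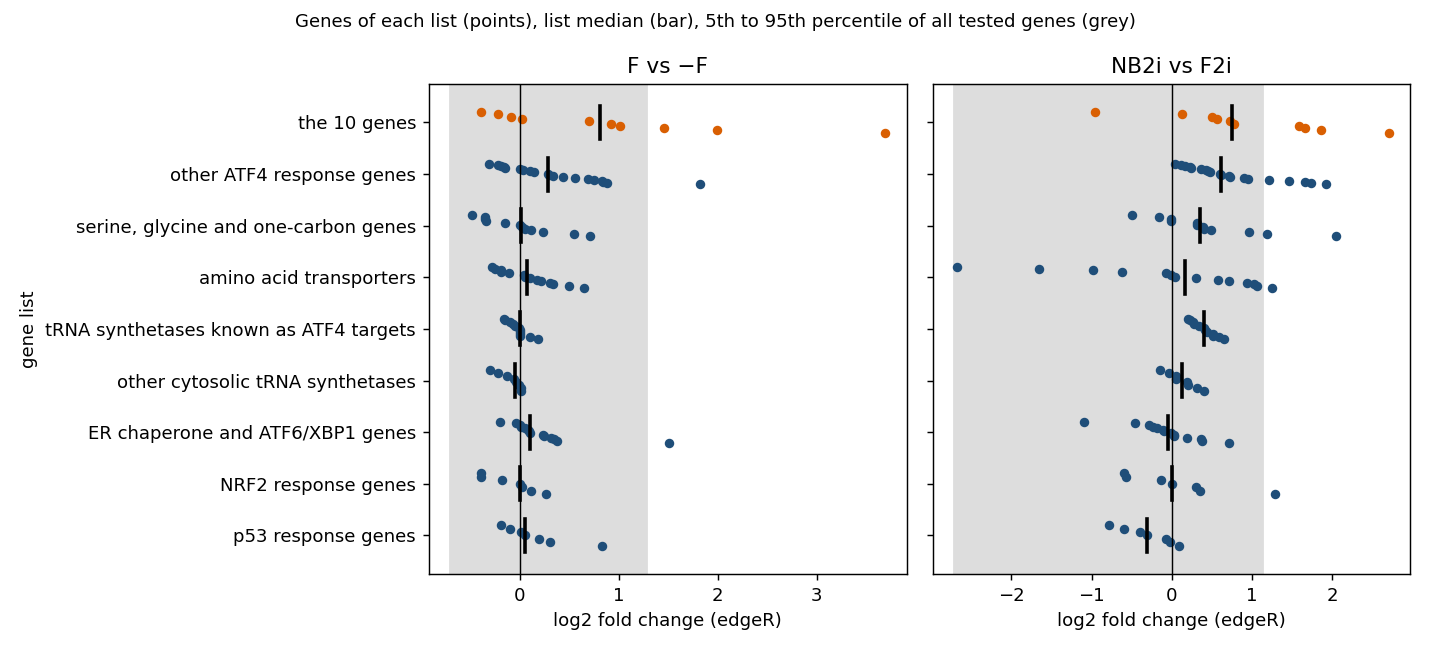
Log2 fold changes of each gene (points) of the 10 members and of 8 further lists in F against −F (left) and NB2i against F2i (right), with the median of each list as a bar and the 5th to 95th percentile of all genes tested in grey. The 12 tRNA synthetases known as ATF4 targets lay between 0.20 and 0.64 in NB2i against F2i.

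The tRNA synthetases, which charge tRNAs with amino acids, had small fold changes. Of 12 synthetase genes known as ATF4 targets, 12 rose and 0 fell in NB2i against F2i (33.3% and 30.8% of all genes), none of them 2-fold, with a median of 0.41 and a range of 0.20 to 0.64. Of 8 other cytosolic synthetase genes, 4 rose and 1 fell, with a median of 0.12. In F against −F, 1 of the 12 rose and 2 fell (21.7% and 18.5% of all genes), with a median of -0.00077. The difference between the lists was not tested.

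In the serine, glycine and one-carbon list, 8 of 12 rose and 1 fell in NB2i against F2i (33.3% and 30.8% of all genes). Aldh1l1, which oxidises formyl-tetrahydrofolate in the cytosol, was the largest at 2.04 ± 0.063, and was already 2.29 ± 0.098 in F2i against F. Gcat, of threonine breakdown, followed at 1.19 ± 0.049. In F against −F, 3 of the list rose and 4 fell (21.7% and 18.5% of all genes) and none passed 2-fold.

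The amino acid transporters moved in both directions. Of 14, 7 rose and 4 fell in NB2i against F2i, where 33.3% of all genes were higher and 30.8% lower, with a median of 0.17. At least 2-fold, 3 were higher and 2 lower (6.01% and 13.3% of all genes). Slc1a5, which carries glutamine and other neutral amino acids, was at 1.25 ± 0.043 and the glycine transporter gene Slc6a9 at 1.06 ± 0.12, while Slc43a1, a carrier of large neutral amino acids, was at -2.68 ± 0.13 and the cationic carrier gene Slc7a2 at -1.66 ± 0.18. Slc7a2 was low, at mean FPKM of 0.73 in F2i and 0.225 in NB2i. Slc7a1, which carries arginine and lysine, was the only one past 2-fold in F2i against F (1.16 ± 0.053). Slc43a1 was just short of 2-fold lower there (-0.99 ± 0.081).

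Lists of neighbouring stress pathways were counted in NB2i against F2i beside the 33.3% of all genes that were higher and the 30.8% that were lower. Of 14 ER chaperone and ATF6 or XBP1 genes, 4 rose and 6 fell, with a median of -0.05, and the co-chaperone gene Dnajb9 fell by 1.10 after a rise of 1.51 in F against −F. Of 7 NRF2 response genes, 3 rose and 3 fell, and Nqo1, a quinone reductase gene, was the only one past 2-fold (1.28 ± 0.068). Of 7 p53 response genes, 0 rose and 4 fell. In F2i against F, 5 of the p53 list rose and 1 fell, where 27.3% of all genes were higher and 27.4% lower. The cell cycle inhibitor gene Cdkn1a was at 1.07 ± 0.045 there. Of the NRF2 list, 2 rose and 5 fell in that comparison. In NB2i against F, 2 rose and 5 fell as well (36.3% and 37.1% of all genes). At least 2-fold there, Nqo1 was higher at 1.57, and Gclc and Txnrd1 were lower at -1.14 and -1.07. In F against −F, 7 of the ER list rose and 1 fell (21.7% and 18.5% of all genes).

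The 10 genes were also compared with each other and with all genes over the 8 samples, as a description, since the samples are 4 pairs of replicates with close total counts. On log2(FPKM + 1), Trib3 and Ddit3 had a Pearson r of 0.98, Chac1 and Ddit3 0.97, and Shmt2 and Slc7a11 0.96. Trib3 and Slc7a11 had 0.95, Chac1 and Trib3 0.94, Asns and Shmt2 0.92, and Atf3 and Phgdh -0.86. Of the genes outside the 10 that averaged 1 FPKM or more, those most like Asns included Leprot (r = 0.999) and Glb1 (r = 0.999). Glb1, the lysosomal β-galactosidase gene, had mean FPKM of 22.8 in −F, 23.1 in F, 55.0 in F2i and 76.7 in NB2i. Those most like Phgdh were Gnptab (r = 0.995), Ybx2 (r = 0.990) and Fam199x (r = 0.988), and Ybx2, a germ cell RNA-binding protein gene, had 21.8, 14.1, 9.66 and 17.6 in the same order.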

How the data were processed

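Poly-A RNA of 8 samples was sequenced on a BGISEQ-500, mapped to mm10 with Bowtie2 and quantified per gene with RSEM by the authors. The deposited expected count is RSEM's unnormalized estimate of the reads of a gene, and the deposited FPKM scales it to the length of the transcript and to depth. Each table lists only genes with a value, so a gene that was not listed was taken as 0, and no mitochondrially encoded gene was listed. Listed genes numbered 17114 to 18111 per sample.

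The expected counts, after rounding, were tested in R 4.3.3 by the quasi-likelihood F test of edgeR 4.0.16 (TMM), with all 8 samples in a single fit by condition. The study used DESeq2, which was run as an alternative. A gene needed 10 or more counts in 2 or more samples to enter. P-values were adjusted over all 15287 genes within each of 6 comparisons by Benjamini and Hochberg's method. A call required an adjusted p under 0.05 and, where stated, a fold change of at least 2. SE values were derived from the fold change and F. The biological coefficient of variation was 3.25%. Replicates of each condition differed by more than sampling noise (chi-square per degree of freedom 1.84 to 3.55).

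Members of the gene set and the lists were chosen with earlier results of these data known. Text names all members and regulators, up to 4 called genes with the largest change per other list and comparison, and the 3 genes most like Asns and Phgdh, of which 1 is not reported here. Alternatives were DESeq2 1.42.0, its size factors in edgeR, no filter, only the groups compared, a replicate block, each sample left out, limma 3.58.1 on log2-transformed FPKM with 1 or 0.1 added, and no fold threshold. Among the members, Slc7a11 rested on the fewest counts. Positions are from GENCODE and promoters from RefSeq.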

Additional observations from a re-analysis of the deposited data

How the results depend on the processing

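For the 10 genes, 638 of 660 alternative values stayed on the same side of the threshold, 22 lost the call and no called value changed sign; of 2499 values of the other list genes, 100 lost and 11 gained a call. Counts at 2-fold were smallest with limma on log2(FPKM + 1), which understates low genes, at 280 higher and 29 lower genes in F against −F (855 and 252 in the main analysis), 355 and 376 in F2i against F (985 and 1070), 783 and 1124 in NB2i against F (1535 and 2683), 391 and 703 in NB2i against F2i (918 and 2038), 880 and 1102 in NB2i against −F (1696 and 2456) and 785 and 667 in F2i against −F (1786 and 1501). Lower genes in F against −F were 141 with DESeq2 and 148 with limma on log2(FPKM + 0.1). Members higher were 5 instead of 8 in NB2i against −F and 2 instead of 4 in F2i against −F under limma on log2(FPKM + 1). Without a fold threshold, members lower in F against −F were 2, and higher and lower in F2i against F 3 and 4. Members higher in NB2i against F were 9, and higher and lower in NB2i against F2i 9 and 1. Members lower in NB2i against −F were 1, and higher and lower in F2i against −F 8 and 2. Of all genes tested, 72.4% in NB2i against −F and 67.8% in F2i against −F had an adjusted p under 0.05, in either direction. Shares for the other comparisons are given above. Chac1 as the 1 member lower in F2i against F became 0 with DESeq2, with its size factors, with limma on log2(FPKM + 1), and ranged from 0 to 1 with samples left out (0 without F replicate 2 or F2i replicate 1). Atf3 in NB2i against F became 0 with limma on log2(FPKM + 1) and ranged from 0 to 1 (0 without NB2i replicate 2), and in NB2i against F2i, where none was counted, it ranged from 0 to 1 (1 without F2i replicate 2 or NB2i replicate 1). Replicate numbers are shared by the conditions, but same-numbered samples did not deviate together (mean correlation -0.0020, range -0.045 to 0.054 over 6 pairs of conditions). With the replicate block, 847 and 245 genes were called in F against −F and 917 and 2026 in NB2i against F2i, and no count of members changed. Slc7a11, with 6.54 to 27.4 expected counts outside NB2i, is limited by depth.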
